A study of Arabidopsis thaliana with 14 samples.

Results

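The transcript response of unprimed Arabidopsis thaliana rosettes to 120 min of high light is described here from the RNA-seq pair C120L, harvested after 120 min at 800 µmol m-2 s-1, and C0, harvested before triggering. Genes entered the comparison when their mean over the 14 libraries of the series was at least 2 FPKM (a fragment count corrected for transcript length and for the size of the library). This left 15074 of 27861 genes. The compared quantity was the log2 ratio of the FPKM in C120L to that in C0.

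All plants were of the accession Col-0 and were grown at 20 °C in days of 10 h light and 14 h dark at 100 to 110 µmol m-2 s-1. C120L and C0 plants had never been in the cold. At 28 d of age the other arm of the study was primed for 24 h at 4 °C, and 5 d later both arms were either harvested at once (P0 and C0) or moved to heat-filtered light of 800 µmol m-2 s-1 at 20 °C (L) or to 4 °C (C) for 30, 60 or 120 min. Each library was made from the pooled whole rosettes of at least 5 plants, and each of the 14 conditions has 1 library. The error of a ratio between such libraries is unknown, no test was run, and a difference is described only by its size against the threshold of 1.5-fold that the study used. C0 was harvested before C120L on the same day and no library of untriggered plants at 120 min was analysed, so the light and the later hour cannot be told apart.

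Light beyond the capacity of photosynthesis leads to excess excitation at the thylakoids, to reactive oxygen species and to warmer leaves. Leaves are known to answer with chaperones made under heat shock factors, with antioxidants and pigments, with the hormones jasmonate (JA) and abscisic acid (ABA), and with a change from sugar shortage to sugar surplus. Phytochromes and cryptochromes read the light itself and act on PHYTOCHROME INTERACTING FACTORS (PIFs), which promote growth, while the circadian clock replaces morning by evening transcripts as the day goes on.

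The FPKM of all genes summed to 728227 in C120L and 717165 in C0, within the range of 700526 to 744648 over the 14 libraries. The 10 most abundant transcripts made up 11.6% of this sum in C120L and 13.01% in C0, and 4880 genes were listed at 0 in C120L and 4890 in C0. The 8 reference genes named by the study, among them UBC9 (AT4G27960) and PP2AA3 (AT1G13320), had log2 ratios between -0.03 and 0.39 with a median of 0.09. Mesophyll markers were abundant in both libraries, with RBCS1A at 23347 FPKM in C120L and 22446 FPKM in C0, whereas 4 of 6 root markers were at 0 in both and the summed level of all 6 was 0.26 FPKM in C120L and 0.14 FPKM in C0. The 8 flower markers summed to 1.33 FPKM in C120L and 2.19 FPKM in C0, of which AG alone had 1.08 FPKM in C120L and 1.96 FPKM in C0. The summed levels of 6 guard cell markers were 43.0 FPKM in C120L and 35.4 FPKM in C0, with the potassium channel gene KAT1 at 18.3 FPKM in C120L and 7.03 FPKM in C0. In such bulk samples fewer cells of a type and less RNA per cell cannot be told apart.

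At 120 min 2045 genes were at least 1.5-fold higher in C120L than in C0, which was 13.6% of the 15060 genes with a ratio, and 2557 genes, 17.0%, were at least 1.5-fold lower. Counts of list members given below stand beside these shares over all genes. At 2-fold the counts were 1017 higher and 1097 lower, and at 4-fold 321 higher and 228 lower, so that the lower genes were more numerous at small and the higher genes at large ratios. The filter on the mean counted C120L and the other triggered libraries, so genes near 0 in C0 could enter through high levels after triggering. The excess at large ratios may thus be partly built in, and the 4-fold counts were not repeated without the filter. The median log2 ratio over all genes was -0.07, with 90% of the genes between -1.212 and 1.201. When the libraries were scaled by the 8 reference genes, the median of all genes moved by -0.12 and the calls were 1636 higher and 3363 lower. The share of higher genes among the calls was 44.4% as deposited and 32.7% after that scaling. Among the 2045 higher genes 1601 had their highest level of the unprimed light series (0, 30, 60 and 120 min) at 120 min, 392 at 60 min and 52 at 30 min. Among the 2557 lower genes 2178 had their lowest level at 120 min. Of all 15074 genes 4741 were highest at 120 min, 3366 at 60 min and 1659 at 30 min, and 5592 were lowest at 120 min. The higher and lower genes were chosen by their level in C120L, so their times of highest or lowest level are partly fixed by that choice.

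**Figure D1:**
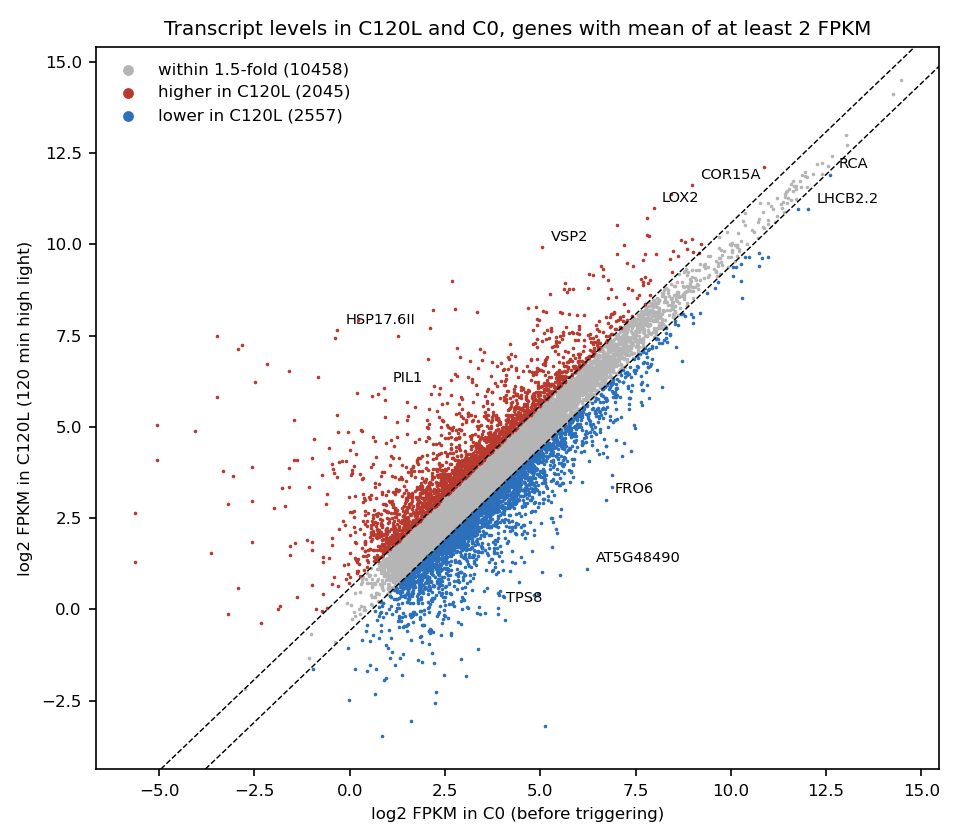
Transcript levels of the 15060 genes with a ratio, as log2 FPKM in C120L (y axis) against log2 FPKM in C0 (x axis). Dashed lines mark 1.5-fold; 2045 genes (red) lay above and 2557 (blue) below them, and the points far above the upper line include HSP17.6II, VSP2 and PIL1.

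The largest ratios among genes with at least 0.5 FPKM in both libraries and at least 10 FPKM in the higher one included heat shock, jasmonate and carbohydrate genes. Small heat shock proteins, which hold unfolding proteins in solution, made up 4 of the 20. HSP17.6II (AT5G12020) had 201 FPKM in C120L and 0.80 FPKM in C0 (log2 ratio 7.97), and AT2G29500 had 173 FPKM in C120L and 0.77 FPKM in C0 (log2 ratio 7.81). In both cases the transcript was low before the light and abundant after it. AT5G51440 (log2 ratio 5.62) and AT1G07400 (4.91) were the others.

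Genes tied to JA formed a larger group. ST2A (AT5G07010), a sulfotransferase that acts on hydroxylated JA, had 243 FPKM in C120L and 1.16 FPKM in C0 (log2 ratio 7.71). The vegetative storage proteins VSP1 (AT5G24780) and VSP2 (AT5G24770), classical JA markers, had 514 FPKM in C120L and 6.41 FPKM in C0 (log2 ratio 6.33) and 975 FPKM in C120L and 33.3 FPKM in C0 (log2 ratio 4.87), in that order. Both genes lie on chromosome 5 (TAIR10.1, 8507590 to 8509201 for VSP1 and 8500468 to 8502224 for VSP2) and are close in sequence, so that reads may be shared between them. JRG21 (AT3G55970) (log2 ratio 5.74), the geranyllinalool synthase gene TPS04 (AT1G61120) (5.67) and the ornithine acetyltransferase gene NATA1 (AT2G39030) (5.47) were higher too. IGMT5 (AT1G76790), a methyltransferase of indolic glucosinolates, had 208 FPKM in C120L and 4.32 FPKM in C0 (log2 ratio 5.59), and the monodehydroascorbate reductase gene MDHAR (AT3G09940) had 57.4 FPKM in C120L and 1.49 FPKM in C0 (log2 ratio 5.27).

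The remaining genes were of mixed function. GPT2 (AT1G61800), which carries glucose 6-phosphate into plastids and is known to follow the sugar status of the leaf, had 178 FPKM in C120L and 2.40 FPKM in C0 (log2 ratio 6.22). CSLA01 (AT4G16590), annotated as a cellulose synthase-like gene, had 295 FPKM in C120L and 4.55 FPKM in C0 (log2 ratio 6.02). PIL1 (AT2G46970), a target of the PIFs, had 66.5 FPKM in C120L and 1.88 FPKM in C0 (log2 ratio 5.15). The CBF transcription factor gene CBF3 (AT4G25480), also named DREB1A, had 21.4 FPKM in C120L and 0.68 FPKM in C0 (log2 ratio 4.97) but 193 FPKM after 120 min in the cold (C120C). The dioxygenase AT2G30830 (log2 ratio 7.20), AT4G02360 (5.16), the STAY-GREEN-like AT4G11911 (5.16) and the bHLH factor AT3G21330 (5.16) completed the 20. CBF3 was the exception when C120L was set against C120C, harvested at the same time of triggering, since the other 19 genes were at least 1.5-fold higher in C120L than in C120C. The 20 genes were chosen by a ratio that holds C120L, so this count is partly built in. The share over all genes was not computed.

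The 20 smallest ratios began with AT5G48490, a putative lipid transfer protein, with 2.17 FPKM in C120L and 75.0 FPKM in C0 (log2 ratio -5.11). DIR1 (AT5G48485), its neighbour on chromosome 5 (19646028 to 19646840, with AT5G48490 at 19647784 to 19648362) and a lipid transfer protein of systemic resistance, was listed at 0 in C120L and had 18.9 FPKM in C0. The B-box factor BBX14 (AT1G68520) had 2.05 FPKM in C120L and 33.0 FPKM in C0 (log2 ratio -4.01), BBX27 (AT1G68190) had 1.37 FPKM in C120L and 14.71 FPKM in C0 (log2 ratio -3.42), and the zinc finger gene ATCTH (AT2G25900) had 1.34 FPKM in C120L and 30.6 FPKM in C0 (log2 ratio -4.51). The ERF factors AT5G61590 (log2 ratio -4.35), RRTF1 (AT4G34410) (-3.64) and ORA47 (AT1G74930) (-3.50), the flowering repressor RAV2 (AT1G68840), also named TEM2 (-3.43), and the bZIP gene BZO2H3 (AT5G28770) (-3.55) were lower as well.

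Carbon-related genes were also among them. The regulatory trehalose phosphate synthase homologue TPS8 (AT1G70290) had 1.02 FPKM in C120L and 14.8 FPKM in C0 (log2 ratio -3.86). The beta-xylosidase gene BXL1 (AT5G49360) had 1.26 FPKM in C120L and 16.5 FPKM in C0 (log2 ratio -3.71). BMY3 (AT5G18670), annotated as a beta-amylase gene, had 1.67 FPKM in C120L and 21.9 FPKM in C0 (log2 ratio -3.71). The ferric reductase gene FRO6 (AT5G49730), active in green leaves, had 8.05 FPKM in C120L and 107 FPKM in C0 (log2 ratio -3.73) and declined through the series, with 107 FPKM before triggering, 58.8 after 30 min, 36.8 after 60 min and 8.05 after 120 min. The others were CYP71B2 (AT1G13080) (log2 ratio -3.61), the hydrolase-like AT2G41250 (-4.44), AT3G15450 (-4.02), the non-coding AT5G02515 (-3.44), and AT5G19190 (-4.57), AT5G05250 (-3.66) and AT4G33666 (-3.53), which are annotated as hypothetical proteins. Apart from AT5G02515, these genes were also at least 1.5-fold lower in C120L than in C120C (19 of 20). Here too C120L enters both ratios, so the count is partly built in.

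**Figure D2:**
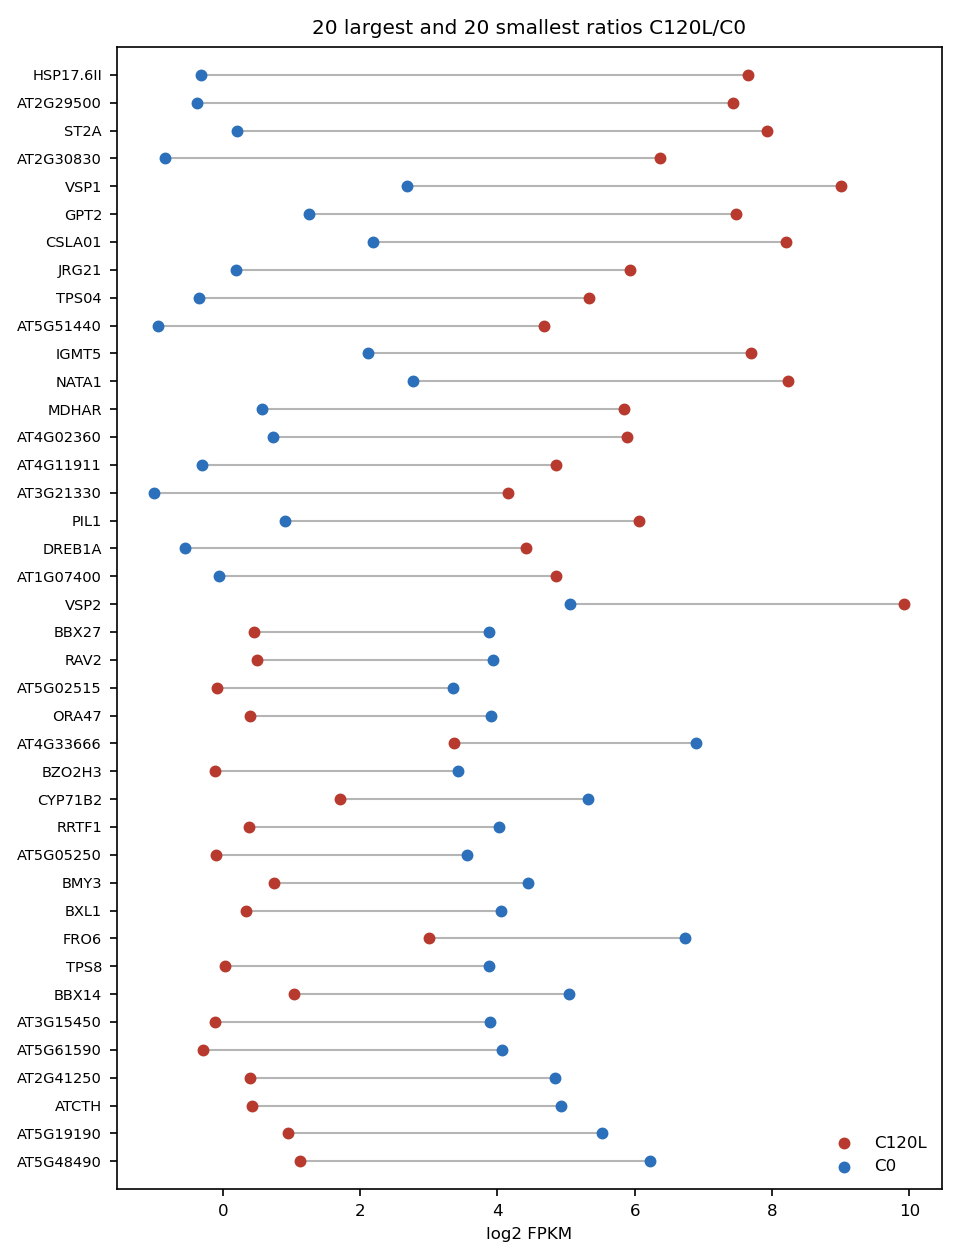
Levels of the 20 genes with the largest and the 20 with the smallest ratio, as log2 FPKM in C120L (red) and C0 (blue), joined by a line for each gene. HSP17.6II at the top had 201 FPKM in C120L and 0.80 FPKM in C0, and AT5G48490 at the bottom had 2.17 FPKM in C120L and 75.0 FPKM in C0.

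Of the genes analysed 11 were listed at 0 in C0, and no fold is given for them. The 5 with the highest level in C120L were the cupin gene AT4G10290 with 28.8 FPKM, the mitochondrial HSP23.6-MITO (AT4G25200) with 24.2 FPKM, HSP22.0 (AT4G10250) with 15.1 FPKM, AT3G27809 with 7.57 FPKM and the plastid HSP21 (AT4G27670) with 6.87 FPKM. The 3 genes listed at 0 in C120L were DIR1, the non-coding AT3G05845 (4.17 FPKM in C0) and AT4G12495 (0.84 FPKM in C0).

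In absolute terms the largest gains were those of the cold-regulated chloroplast protein gene COR15A (AT2G42540), with 3148 FPKM in C120L and 507 FPKM in C0 (log2 ratio 2.63), and of the nitrilase NIT1 (AT3G44310), with 4495 FPKM in C120L and 1864 FPKM in C0 (log2 ratio 1.27). DHAR1 (AT1G19570), which regenerates ascorbate, had 2659.9 FPKM in C120L and 347 FPKM in C0 (log2 ratio 2.94). The lipoxygenase LOX2 (AT3G45140), which starts JA synthesis in chloroplasts, had 2048 FPKM in C120L and 251 FPKM in C0 (log2 ratio 3.03), and the arginase ARGAH2 (AT4G08870) had 1678 FPKM in C120L and 224 FPKM in C0 (log2 ratio 2.91). The largest losses were photosynthetic. RCA (AT2G39730), which activates Rubisco, had 3866 FPKM in C120L and 6263 FPKM in C0 (log2 ratio -0.70), and LHCB2.2 (AT2G05070), an antenna protein of photosystem II, had 2016 FPKM in C120L and 4206 FPKM in C0 (log2 ratio -1.06). The antenna genes LHCB1.3 (AT1G29930) (17808 FPKM in C120L and 19744 FPKM in C0), LHCB1.5 (AT2G34420) (6728 FPKM in C120L and 8447 FPKM in C0) and LHCB1.1 (AT1G29920) (3934 FPKM in C120L and 5412 FPKM in C0) were within 1.5-fold despite these losses, and as near-identical copies they may share reads.

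Chaperone genes were then read by class. Of 18 small heat shock protein genes 17 reached the mean of 2 FPKM, 14 had a ratio, 11 were higher and 1 was lower, and 3 were listed at 0 in C0 (named above). Their median log2 ratio was 3.99, beside -0.07 over all genes. It was 1.37 over the 10 members that reached 0.5 FPKM in each of C0 and P0 (7 higher and 1 lower), and 2.04 with P0 in place of C0. The members left out by that floor were near 0 before the light. Cytosolic AT1G53540 had 179 FPKM in C120L and 0.09 FPKM in C0 (log2 ratio 10.96), and HSP17.4 (AT3G46230) had 141 FPKM in C120L and 0.13 FPKM in C0 (log2 ratio 10.09). HSP17.6A (AT5G12030), next to HSP17.6II on chromosome 5 (3883957 to 3884838, after 3882231 to 3883111), had 56.6 FPKM in C120L and 0.09 FPKM in C0 (log2 ratio 9.30). Levels of about 0.1 FPKM rest on few fragments, and these ratios are correspondingly loose. The member that was lower, AT4G21870, had 0.67 FPKM in C120L and 1.76 FPKM in C0 (log2 ratio -1.39).

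Most of these transcripts were past their maximum at 120 min. Of the 17 small heat shock protein genes 13 were highest at 60 min, 2 at 30 min and 1 at 120 min, and 22 of 24 large chaperones and co-chaperones were highest at 60 min. Among all 15074 genes 3366 were highest at 60 min. HSP17.6II had 0.80 FPKM before triggering, 68.5 after 30 min, 329 after 60 min and 201 after 120 min. AT1G59860 had 1.80 FPKM before triggering, 221 after 30 min, 202 after 60 min and 4.83 after 120 min. The large chaperones had a median log2 ratio of 0.80, with 14 of 24 higher and none lower at 120 min. The largest was the co-chaperone HOP3 (AT4G12400), with 14.8 FPKM in C120L and 0.33 FPKM in C0 (log2 ratio 5.48), followed by the peptidyl-prolyl isomerase ROF2 (AT5G48570) with 60.1 FPKM in C120L and 4.41 FPKM in C0 (log2 ratio 3.77) and HSP70 (AT3G12580) with 140.2 FPKM in C120L and 10.6 FPKM in C0 (log2 ratio 3.72). The disaggregase HSP101 (AT1G74310) had 4.31 FPKM before triggering, 146 after 30 min, 324 after 60 min and 7.76 after 120 min, so that most of its increase was over by 120 min. HSC70-1 (AT5G02500), the most abundant member, had 1489 FPKM in C120L and 1318 FPKM in C0 (log2 ratio 0.18).

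Most regulators of these genes were within 1.5-fold of their starting level or below it. Of 15 heat shock factors and MBF1C 2 were higher and 6 lower, with a median of -0.07. HSFA2 (AT2G26150), a factor that maintains the heat response, had 5.54 FPKM before triggering, 254 after 30 min, 121 after 60 min and 5.26 after 120 min. The coactivator MBF1C (AT3G24500) had 12.9 FPKM before triggering, 232 after 30 min, 131 after 60 min and 8.12 after 120 min, and HSFA7A (AT3G51910) had 1.65 FPKM before triggering, 54.9 after 30 min, 30.5 after 60 min and 0.82 after 120 min. HSFA8 (AT1G67970) (log2 ratio 1.32) and HSFA1B (AT5G16820) (1.17) were the members that were higher at 120 min. The count of lower heat shock factors and MBF1C depended on the setting. It was 3 with a pseudocount of 1 FPKM and 2 with P0 as baseline, where 3 were higher. In P120L against P0 5 of the 15 were higher and none lower, with a median of 0.41. Chaperones of the endoplasmic reticulum were highest at 120 min in 9 of 15 cases, beside 4741 of all 15074 genes. At that time 10 of 15 were higher and none lower, with a median of 0.68 that came to 0.56, within 1.5-fold, after scaling by the reference genes. The lectin chaperone gene CNX1 (AT5G61790) had 79.3 FPKM before triggering, 85.3 after 30 min, 149 after 60 min and 173 after 120 min. The disulphide isomerase PDIL1-1 (AT1G21750) (log2 ratio 1.17) and the luminal HSP70 genes BIP1 (AT5G28540) (1.12) and BIP2 (AT5G42020) (0.99), which are near-identical copies, followed.

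JA is made from plastid fatty acids by lipoxygenases (LOX), allene oxide synthase (AOS) and cyclases (AOC), then by OPR3 and beta-oxidation in the peroxisome, and is joined to isoleucine by JAR1. Of 16 genes listed under synthesis, all with a ratio, 12 were higher and 1 was lower, with a median log2 ratio of 1.79. AOS (AT5G42650) had 1201 FPKM in C120L and 231 FPKM in C0 (log2 ratio 2.38), OPR3 (AT2G06050) had 564 FPKM in C120L and 99.4 FPKM in C0 (log2 ratio 2.51), and ACX1 (AT4G16760), an acyl-CoA oxidase, had 178 FPKM in C120L and 42.7 FPKM in C0 (log2 ratio 2.06). The cyclase genes AOC1 (AT3G25760), AOC2 (AT3G25770) and AOC3 (AT3G25780), which are near-identical copies, had log2 ratios of 2.90, 2.83 and 2.27. JAR1 (AT2G46370) had 77.5 FPKM in C120L and 27.0 FPKM in C0 (log2 ratio 1.52). The lower member was LOX1 (AT1G55020), whose product is not plastidial, with 5.68 FPKM in C120L and 11.7 FPKM in C0 (log2 ratio -1.04). The lipoxygenases that the study names for JA synthesis are LOX2 to LOX4, and LOX1 is not among them. LOX2 had 251 FPKM before triggering, 273 after 30 min, 1005 after 60 min and 2048 after 120 min, and OPR3 had 99.4 FPKM before triggering, 88.7 after 30 min, 623 after 60 min and 564 after 120 min. All but 1 of the 16 genes were highest at 60 min (9 genes) or 120 min (6 genes), whereas the heat shock factors were highest at 30 min (5 of 15) or 60 min (6 of 15) in most cases.

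JA-isoleucine is perceived by COI1 with JAZ repressors, which then release MYC factors. The receptor gene COI1 (AT2G39940) had 11.3 FPKM in C120L and 16.1 FPKM in C0 (log2 ratio -0.51), within 1.5-fold. MYC2 (AT1G32640) had 129 FPKM in C120L and 65.8 FPKM in C0 (log2 ratio 0.97). Among the JAZ genes JAZ9 (AT1G70700) was the most abundant, with 763 FPKM in C120L and 209 FPKM in C0 (log2 ratio 1.87), and JAZ10 (AT5G13220) had the largest ratio, with 87.2 FPKM in C120L and 6.81 FPKM in C0 (log2 ratio 3.68). JAZ7 (AT2G34600) was lower, with 11.1 FPKM in C120L and 20.2 FPKM in C0 (log2 ratio -0.87). Enzymes that remove the hormone were higher too. The hydroxylases CYP94B1 (AT5G63450) and CYP94B3 (AT3G48520) had 24.01 FPKM in C120L and 1.06 FPKM in C0 (log2 ratio 4.50) and 46.6 FPKM in C120L and 3.25 FPKM in C0 (log2 ratio 3.84), in that order, and the amidohydrolases ILL6 (AT1G44350) and IAR3 (AT1G51760) had log2 ratios of 4.34 and 2.86. In all 15 of 20 signalling and turnover genes were higher and 1 was lower, with a median of 1.03. The same genes had a median log2 ratio of 1.12 in primed plants (P120L against P0), and synthesis genes one of 1.29. With P0 in place of C0 as the baseline of C120L, the medians were 2.22 for signalling and turnover and 2.24 for synthesis. The baselines of the unprimed and primed pairs thus differed for these genes, and similar ratios need not mean similar levels.

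Salicylic acid genes were split. Of 15 genes 7 were higher and 6 lower, with a median of 0.13. The higher ones included the pathogenesis-related outputs PR2 (AT3G57260) with 71.5 FPKM in C120L and 16.7 FPKM in C0 (log2 ratio 2.09) and PR5 (AT1G75040) with 62.1 FPKM in C120L and 32.0 FPKM in C0 (log2 ratio 0.96), and the exporter gene EDS5 (AT4G39030) with 11.97 FPKM in C120L and 4.44 FPKM in C0 (log2 ratio 1.43). The lower ones were regulators and the synthesis gene ICS1 (AT1G74710), with 4.62 FPKM in C120L and 10.2 FPKM in C0 (log2 ratio -1.14), and included CBP60G (AT5G26920) (log2 ratio -1.81), NPR3 (AT5G45110) (-1.305), SARD1 (AT1G73805) (-1.05), PAD4 (AT3G52430) (-0.99) and EDS1 (AT3G48090) (-0.99). The split depended on the setting. With a mean of at least 10 FPKM 4 of 6 genes were higher and 1 lower, with a median of 0.94. With P0 as baseline 8 of 15 were higher and 5 lower, with a median of 0.68.

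COR genes, known from cold and drought acclimation, were higher at 20 °C in the light. Of 12 genes 11 were higher and none lower, with a median log2 ratio of 2.12. COR15A had 507 FPKM before triggering, 669 after 30 min, 1329 after 60 min and 3148 after 120 min, and 1433 FPKM after 120 min of cold. The dehydrin ERD10 (AT1G20450) had 1118 FPKM in C120L and 412 FPKM in C0 (log2 ratio 1.44), RD29A (AT5G52310) had 578 FPKM in C120L and 82.9 FPKM in C0 (log2 ratio 2.80), RD29B (AT5G52300) had 8.52 FPKM in C120L and 0.98 FPKM in C0 (log2 ratio 3.12), and COR15B (AT2G42530) had 248 FPKM in C120L and 29.96 FPKM in C0 (log2 ratio 3.05). COR413-PM1 (AT2G15970) had 461 FPKM in C120L and 365 FPKM in C0 (log2 ratio 0.34) and was the member within 1.5-fold. All members except ERD10 were highest at 120 min. Their CBF regulators stood at lower levels than in the cold. CBF2 (AT4G25470) had 5.28 FPKM in C120L, 127 FPKM in C120C and 2.04 FPKM in C0, and CBF1 (AT4G25490) had 1.60 FPKM in C120L, 23.2 FPKM in C120C and 0.50 FPKM in C0.

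ABA is made through NCED enzymes, destroyed by CYP707A hydroxylases, and sensed by PYR/PYL receptors that block PP2C phosphatases. NCED3 (AT3G14440) had 7.35 FPKM in C120L and 2.14 FPKM in C0 (log2 ratio 1.78), after a maximum of 18.0 FPKM at 60 min. CYP707A3 (AT5G45340) had 0.40 FPKM in C120L and 2.51 FPKM in C0 (log2 ratio -2.65), whereas CYP707A2 (AT2G29090) had 7.19 FPKM in C120L and 3.15 FPKM in C0 (log2 ratio 1.19). The phosphatase genes HAI1 (AT5G59220) and ABI1 (AT4G26080), which are also ABA-induced, had 18.3 FPKM in C120L and 2.1 FPKM in C0 (log2 ratio 3.13) and 62.2 FPKM in C120L and 19.7 FPKM in C0 (log2 ratio 1.66), in that order. All together 8 of 14 turnover and signalling genes were higher and 1 was lower, with a median of 0.91. With a mean of at least 10 FPKM 2 of 7 were higher and the median was 0.28, within 1.5-fold. Of the receptors 4 of 7 were lower and none was higher, with a median of -0.89 that came within 1.5-fold with a mean of at least 10 FPKM (-0.55) and with a pseudocount of 1 FPKM (-0.52). PYL7 (AT4G01026) had 9.71 FPKM in C120L and 23.3 FPKM in C0 (log2 ratio -1.26), PYL9 (AT1G01360) had 5.40 FPKM in C120L and 12.3 FPKM in C0 (log2 ratio -1.19), and the 7 log2 ratios lay between -1.26 and -0.51.

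The other rapid stress factors were split, with 8 of 20 CBF, DREB2, ZAT and ERF genes higher and 7 lower. ZAT6 (AT5G04340) had 4.57 FPKM before triggering, 42.1 after 30 min, 22.3 after 60 min and 17.3 after 120 min, and DREB2A (AT5G05410) had 0.66 FPKM before triggering, 20.7 after 30 min, 5.0 after 60 min and 1.02 after 120 min. MYB44 (AT5G67300), the most abundant, had 206 FPKM in C120L and 89.8 FPKM in C0 (log2 ratio 1.201). SZF1 (AT3G55980) had 21.4 FPKM before triggering, 27.9 after 30 min, 37.4 after 60 min and 5.11 after 120 min. WRKY genes as a family had 4 of 33 higher and 4 lower, with a median of -0.02, beside 13.6% higher and 17.0% lower over all genes. In the NAC family 9 of 31 were higher and 8 lower, the extremes being NAC019 (AT1G52890), a JA- and ABA-responsive factor with 53.4 FPKM in C120L and 1.89 FPKM in C0 (log2 ratio 4.82), and ANAC029 (AT1G69490), the senescence factor NAP, with 2.25 FPKM in C120L and 14.2 FPKM in C0 (log2 ratio -2.65). Other senescence markers stood beside it with the opposite sign, as SAG13 had 27.4 FPKM in C120L and 5.24 FPKM in C0, and SAG29 had 7.54 FPKM in C120L and 4.02 FPKM in C0, while SAG12 was at 0.44 FPKM in C120L and 0.15 FPKM in C0.

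**Figure D3:**
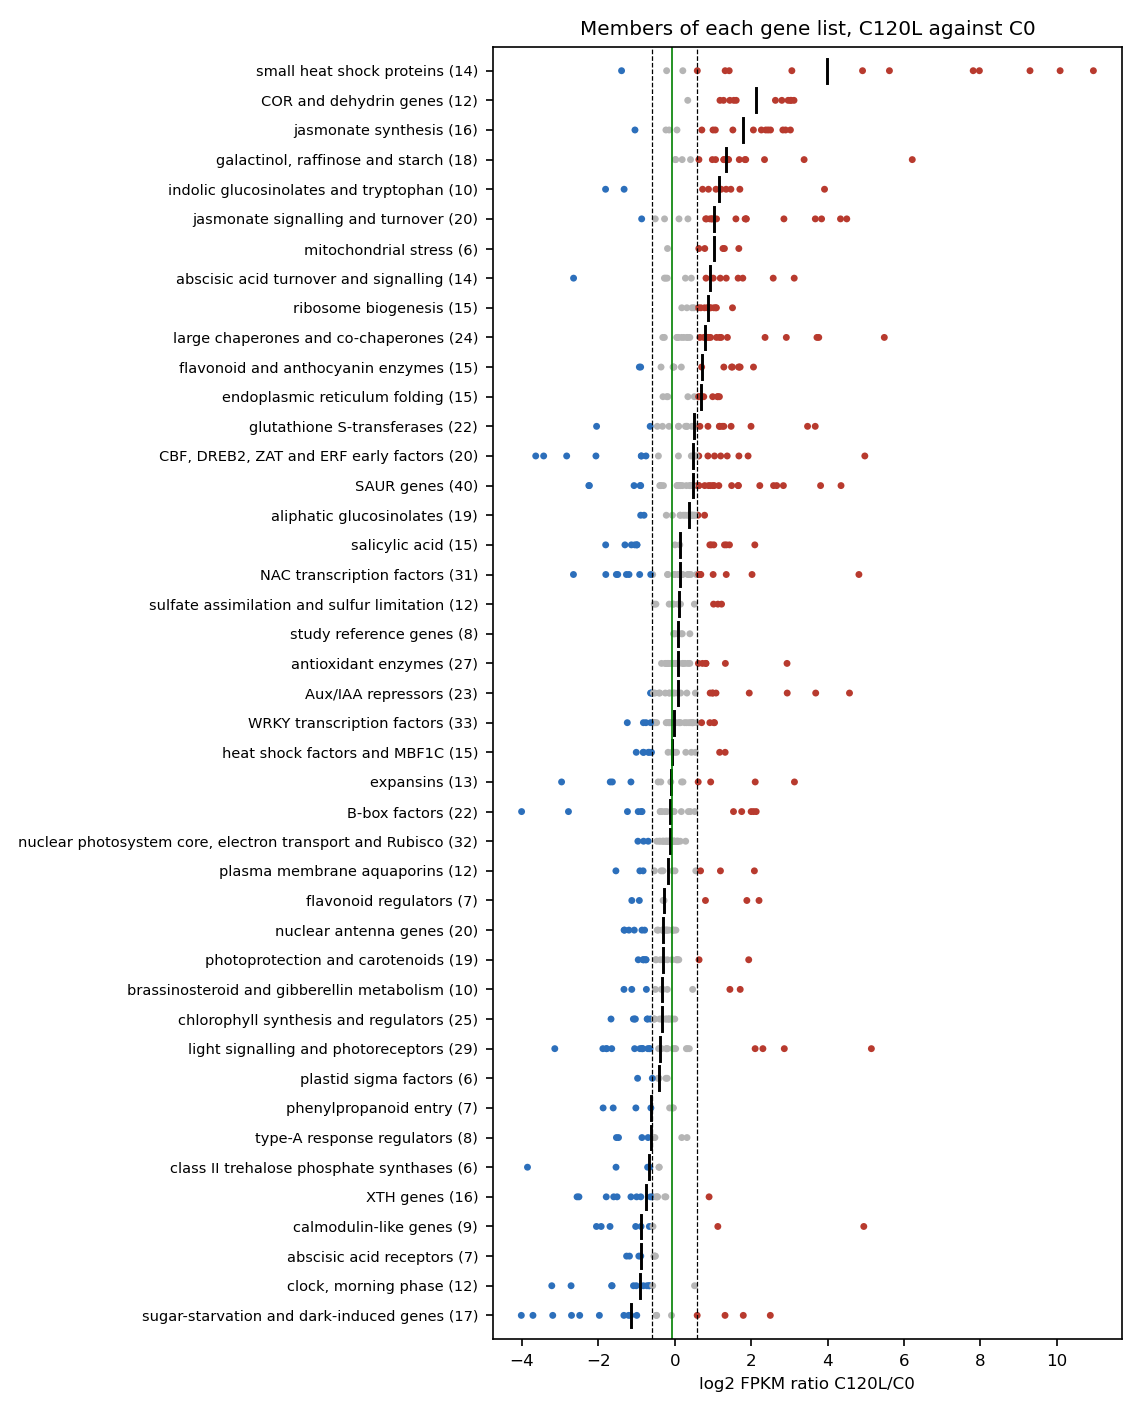
Log2 ratio C120L/C0 of each member (points) of the gene lists with at least 6 ratios, with the list median as a black bar and the number of members in parentheses; red and blue mark members past 1.5-fold (dashed lines), and the green line is the median of all genes, -0.07. Small heat shock proteins had a median of 3.99, which was 1.37 with a floor of 0.5 FPKM for C0 and for P0 and then below that of COR genes (2.12). Sugar-starvation genes had one of -1.15, which was 0.59 with a mean of at least 10 FPKM.

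Of 29 light signalling genes 4 were higher, a share near the 13.6% over all genes, and 13 were lower, beside 17.0% over all genes, with a median of -0.39. The higher ones were PIL1, the atypical bHLH gene HFR1 (AT1G02340) with 13.5 FPKM in C120L and 1.85 FPKM in C0 (log2 ratio 2.87), the homeobox gene HB-2 (AT4G16780) with 85.2 FPKM in C120L and 17.2 FPKM in C0 (log2 ratio 2.31), all of which are known targets of the PIFs, and the photoreceptor gene PHYB (AT2G18790) with 71.3 FPKM in C120L and 16.6 FPKM in C0 (log2 ratio 2.103). HB-2 had 17.2 FPKM before triggering, 282 after 30 min, 179 after 60 min and 85.2 after 120 min. Genes for several PIFs themselves were lower. PIF1 (AT2G20180) had 2.08 FPKM in C120L and 18.4 FPKM in C0 (log2 ratio -3.14), PIF4 (AT2G43010) had 31.9 FPKM in C120L and 110.4 FPKM in C0 (log2 ratio -1.79), PIF5 (AT3G59060) had 37.3 FPKM in C120L and 128 FPKM in C0 (log2 ratio -1.78), and PIF7 (AT5G61270) had 13.4 FPKM in C120L and 49.3 FPKM in C0 (log2 ratio -1.88). The blue-light receptor genes CRY1 (AT4G08920) and CRY2 (AT1G04400) had 15.3 FPKM in C120L and 48.0 FPKM in C0 (log2 ratio -1.65) and 10.7 FPKM in C120L and 22.2 FPKM in C0 (log2 ratio -1.05), in that order. HY5 (AT5G11260), the factor that opposes the PIFs, had 13.3 FPKM before triggering, 20.8 after 30 min, 12.2 after 60 min and 7.04 after 120 min.

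The B-box factors, zinc finger proteins that act with HY5 and the clock, had 5 of 22 members higher and 6 lower. The shares over all genes were 13.6% higher and 17.0% lower. Besides BBX14, COL2 (AT3G02380) was much lower, with 6.79 FPKM in C120L and 46.8 FPKM in C0 (log2 ratio -2.78). BBX31 (AT3G21890) had 33.7 FPKM in C120L and 7.70 FPKM in C0 (log2 ratio 2.13) and BBX29 (AT5G54470) had 39.3 FPKM in C120L and 9.83 FPKM in C0 (log2 ratio 1.998), and AT2G47890 was higher too (log2 ratio 2.06).

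Auxin-responsive growth genes were among those higher. Of 23 Aux/IAA repressor genes, which are early auxin targets, 8 were higher and 2 lower, with a median of 0.07 that changed sign to -0.04 after scaling by the reference genes. IAA29 (AT4G32280) had 29.5 FPKM in C120L and 1.24 FPKM in C0 (log2 ratio 4.57), IAA5 (AT1G15580) had 36.5 FPKM in C120L and 2.83 FPKM in C0 (log2 ratio 3.69), and IAA19 (AT3G15540) had 38.8 FPKM in C120L and 5.04 FPKM in C0 (log2 ratio 2.94). Of 40 SAUR genes, small auxin-induced proteins of cell expansion, 18 were higher and 5 lower, with a median of 0.47. SAUR22 (AT5G18050) had 39.0 FPKM in C120L and 1.91 FPKM in C0 (log2 ratio 4.35) and SAUR19 (AT5G18010) had 15.2 FPKM in C120L and 1.08 FPKM in C0 (log2 ratio 3.82). Both belong to a cluster of similar copies. SAUR78 (AT1G72430) was lower, with 16.6 FPKM in C120L and 78.3 FPKM in C0 (log2 ratio -2.24). Of 16 XTH genes, which encode enzymes that cut and rejoin xyloglucan, 10 were lower and 1 was higher, with a median of -0.76. XTH4 (AT2G06850) had 233 FPKM in C120L and 515 FPKM in C0 (log2 ratio -1.15) and XTH6 (AT5G65730) had 31.6 FPKM in C120L and 180.1 FPKM in C0 (log2 ratio -2.51). Expansins, which loosen walls, were split at 4 higher and 4 lower of 13, from EXPA8 (AT2G40610) with 5.92 FPKM in C120L and 46.2 FPKM in C0 (log2 ratio -2.96) to EXPA16 (AT3G55500) with 43.2 FPKM in C120L and 4.93 FPKM in C0 (log2 ratio 3.13).

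The morning genes of the clock were lower at 120 min. Of 12 genes 10 were lower and none higher, with a median of -0.92. LHY (AT1G01060) had 119 FPKM before triggering, 56.3 after 30 min, 36.0 after 60 min and 12.8 after 120 min, and its partner CCA1 (AT2G46830) had 119.9 FPKM before triggering, 120.2 after 30 min, 98.1 after 60 min and 56.6 after 120 min. LNK2 (AT3G54500), a coactivator, had 64.7 FPKM in C120L and 203 FPKM in C0 (log2 ratio -1.65). Of the evening genes 3 of 4 with a ratio were higher, with a median of 1.02. LUX (AT3G46640) had 19.4 FPKM in C120L and 5.26 FPKM in C0 (log2 ratio 1.88). GI (AT1G22770) had 14.6 FPKM in C120L and 7.09 FPKM in C0 (log2 ratio 1.04). ELF3 (AT2G25930) had 2.81 FPKM in C120L and 1.4 FPKM in C0 (log2 ratio 1.01). After 120 min in the cold (C120C against C0) the median of the same 4 genes was 2.47. The day-phase gene PRR5 (AT5G24470) had 7.38 FPKM in C120L and 0.11 FPKM in C0 (log2 ratio 6.07), with 339 FPKM in C120C, and PRR9 (AT2G46790) and PRR7 (AT5G02810) were within 1.5-fold with log2 ratios of 0.10 and 0.09.

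Sequences before the annotated start were searched on both strands for the G-box CACGTG, bound by bHLH and bZIP factors, for the evening element AAAATATCT, bound by CCA1 and LHY type factors, and for the heat shock element GAANNTTC. The windows of 250 bases were taken from the RefSeq annotation of TAIR10.1, in which 15055 of the 15074 genes had one. The G-box was in 7.69% of all windows, in 11.9% of those of the genes higher in C120L and in 6.74% of those of the genes lower in C120L. The evening element was in 2.56% of all windows, in 5.00% for the higher and 1.84% for the lower genes, and the heat shock element was in 9.17% of all, in 10.4% for the higher and 9.91% for the lower genes. A match is a run of letters and not a shown binding site. Among the lists, the one whose share was farthest from that of all windows was the day phase of the clock, with a G-box in 2 of 3 windows. Next was its evening phase, with an evening element in 4 of 8 windows (TOC1, LUX, BOA and FKF1). Small heat shock protein genes held a heat shock element in 4 of 18 windows (HSP17.4, AT1G53540, HSP21 and AT1G52560). The share was larger in lists outside the chaperones, among them the CBF, DREB2, ZAT and ERF factors (8 of 24). Salicylic acid genes and ribosome biogenesis genes held it in 4 of 15 windows each. Large chaperones and co-chaperones held it in 1 of 24. Only the run GAANNTTC was searched, and 9.17% of all windows held it. These shares therefore cannot decide whether heat shock elements set heat shock genes apart. The windows of the day-phase genes are printed in the order of their ratios, followed by those of LUX and HSP17.4, which were added after their values were seen. LUX had the largest ratio of the evening genes, and HSP17.4 is a small heat shock protein gene with a heat shock element. Capitals mark the motifs, and each window runs 5′ to 3′ up to the base before the gene start. PRR5 lies on chromosome 5 (window 8358547 to 8358796, minus strand), PRR9 on chromosome 2 (19232357 to 19232606, plus strand), PRR7 on chromosome 5 (642031 to 642280, minus strand), LUX on chromosome 3 (17182792 to 17183041, plus strand) and HSP17.4 on chromosome 3 (16984868 to 16985117, minus strand).
PRR5: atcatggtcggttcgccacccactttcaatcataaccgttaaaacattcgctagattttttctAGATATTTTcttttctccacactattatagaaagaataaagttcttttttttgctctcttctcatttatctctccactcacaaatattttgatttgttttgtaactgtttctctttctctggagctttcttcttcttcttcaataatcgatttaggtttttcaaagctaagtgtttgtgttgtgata
PRR9: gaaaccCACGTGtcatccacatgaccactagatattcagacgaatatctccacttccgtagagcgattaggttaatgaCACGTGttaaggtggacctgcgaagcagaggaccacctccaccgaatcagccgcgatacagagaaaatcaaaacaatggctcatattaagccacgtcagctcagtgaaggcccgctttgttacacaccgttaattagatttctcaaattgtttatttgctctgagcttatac
PRR7: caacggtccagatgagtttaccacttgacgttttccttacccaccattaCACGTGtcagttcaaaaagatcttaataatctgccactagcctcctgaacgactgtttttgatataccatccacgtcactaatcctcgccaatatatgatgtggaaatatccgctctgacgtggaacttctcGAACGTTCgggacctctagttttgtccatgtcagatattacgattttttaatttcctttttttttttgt
LUX: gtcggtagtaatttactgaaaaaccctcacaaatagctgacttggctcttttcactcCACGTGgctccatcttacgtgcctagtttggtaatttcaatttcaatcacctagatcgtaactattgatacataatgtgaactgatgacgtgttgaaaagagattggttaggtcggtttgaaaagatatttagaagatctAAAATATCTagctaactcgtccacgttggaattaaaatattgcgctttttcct
HSP17.4: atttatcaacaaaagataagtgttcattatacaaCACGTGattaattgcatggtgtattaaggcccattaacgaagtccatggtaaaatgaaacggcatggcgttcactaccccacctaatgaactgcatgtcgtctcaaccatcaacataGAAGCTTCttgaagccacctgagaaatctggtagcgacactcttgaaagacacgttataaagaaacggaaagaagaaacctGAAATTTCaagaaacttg

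PRR5 held an evening element 187 to 179 bases before the start and was at 7.38 FPKM in C120L and 0.11 FPKM in C0. PRR9 held a pair of G-boxes, the nearer at 172 to 167 bases, and PRR7 held 1 G-box at 201 to 196 bases and a heat shock element at 69 to 62 bases. LUX held a G-box at 193 to 188 bases and an evening element at 53 to 45 bases. HSP17.4 held a pair of heat shock elements, at 99 to 92 and at 18 to 11 bases, and a G-box at 216 to 211 bases. No motifs overlapped in these windows.

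Transcripts that mark sugar shortage were lower in most cases and those of starch and galactinol metabolism were mostly higher. Of 17 sugar-starvation and dark-induced genes 10 were lower and 4 higher, with a median of -1.15 that turned to 0.59 among members with a mean of at least 10 FPKM. AT3G15450 had 14.9 FPKM before triggering, 2.54 after 30 min, 1.03 after 60 min and 0.92 after 120 min, and the kinase subunit gene AKINBETA1 (AT5G21170) had 2.13 FPKM in C120L and 11.96 FPKM in C0 (log2 ratio -2.49). DIN10 (AT5G20250) (log2 ratio -2.70), DIN1 (AT4G35770) (-1.97) and the asparagine synthetase gene ASN1 (AT3G47340) (-1.21) were lower too, whereas EXL4 (AT5G09440) had 33.0 FPKM in C120L and 5.84 FPKM in C0 (log2 ratio 2.50) and the glutamate dehydrogenase gene GDH2 (AT5G07440) had 35.6 FPKM in C120L and 10.3 FPKM in C0 (log2 ratio 1.79). The class II trehalose phosphate synthases had 4 of 6 members lower and none higher, with a median of -0.68. The kelch gene KMD1 (AT1G80440), whose product targets phenylalanine ammonia-lyase and cytokinin response regulators for degradation, had 0.39 FPKM in C120L and 7.59 FPKM in C0 (log2 ratio -4.28).

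In the list of galactinol, raffinose and starch metabolism, which holds genes of both synthesis and breakdown, 14 of 18 genes were higher and none lower, with a median of 1.33. GPT2 had 2.40 FPKM before triggering, 9.24 after 30 min, 63.5 after 60 min and 178 after 120 min. The granule-bound starch synthase GBSS1 (AT1G32900) had 506 FPKM in C120L and 208 FPKM in C0 (log2 ratio 1.28). Several genes of starch breakdown in the list were higher, among them the beta-amylase BAM3 (AT4G17090) with 528 FPKM in C120L and 199 FPKM in C0 (log2 ratio 1.41), the debranching enzyme ISA3 (AT4G09020) with 23.2 FPKM in C120L and 4.56 FPKM in C0 (log2 ratio 2.35) and the glucan water dikinase SEX1 (AT1G10760) with 58.8 FPKM in C120L and 22.5 FPKM in C0 (log2 ratio 1.39). BMY3, annotated as a beta-amylase gene but not in the list, was lower (log2 ratio -3.71), and its role in starch breakdown was not examined. The galactinol synthases GOLS1 (AT2G47180), GOLS2 (AT1G56600) and GOLS3 (AT1G09350) had log2 ratios of 3.38, 1.84 and 1.86. GOLS1 had 29.8 FPKM before triggering, 52.2 after 30 min, 322 after 60 min and 311 after 120 min, and 31.0 FPKM in C120C.

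**Figure D4:**
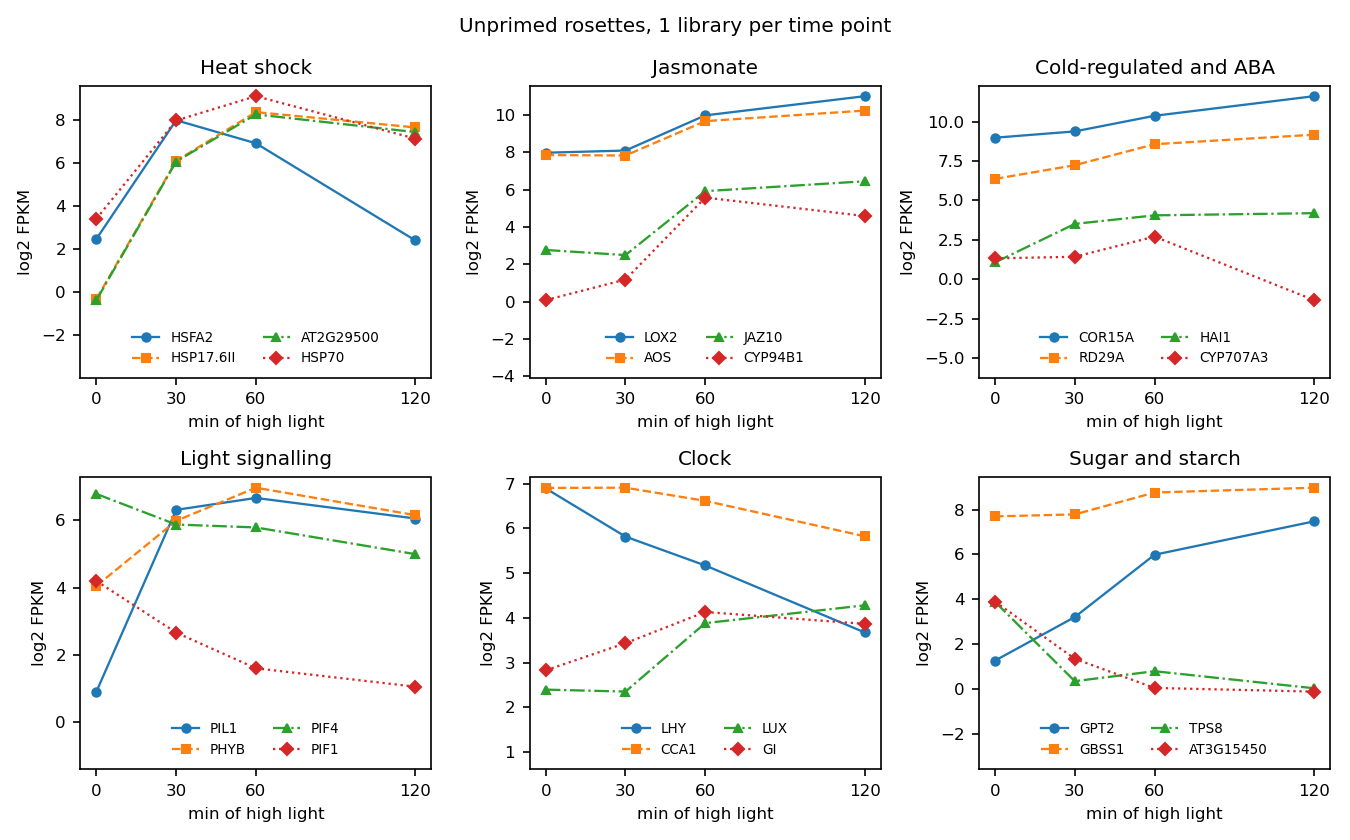
Levels of 4 genes from each of 6 groups in unprimed rosettes, as log2 FPKM against minutes of high light, with 1 library per time (C0, C30L, C60L and C120L). HSFA2 had returned to 5.26 FPKM by 120 min, while LOX2, COR15A and GPT2 were highest there, and LHY and PIF1 were lowest.

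No gene of the photosynthetic lists was higher, and most were within 1.5-fold. Over all genes 17.0% were lower. Antenna genes had 6 of 20 members lower and a median of -0.31. LHCB4.2 (AT3G08940) had 680.1 FPKM in C120L and 1706 FPKM in C0 (log2 ratio -1.33), LHCB1.4 (AT2G34430) had 814 FPKM in C120L and 2025 FPKM in C0 (log2 ratio -1.31), and LHCB2.1 (AT2G05100), LHCB2.3 (AT3G27690) and LHCB2.2 had log2 ratios of -0.79, -1.202 and -1.06, whereas LHCB3 (AT5G54270) had 4694 FPKM in C120L and 4872 FPKM in C0 (log2 ratio -0.05). All 3 members of the LHCB2 group were thus among the 6. Of 32 nuclear genes for photosystem cores, electron transport and Rubisco 3 were lower, a smaller share than over all genes, with a median of -0.13, and RBCS1A (AT1G67090) had 23347 FPKM in C120L and 22446 FPKM in C0 (log2 ratio 0.06). Chlorophyll genes had 7 of 25 lower and a median of -0.34. The largest decrease was in chlorophyllide a oxygenase CAO (AT1G44446), which makes chlorophyll b for the antenna, with 224 FPKM before triggering, 147 after 30 min, 102 after 60 min and 70.5 after 120 min. The chelatase subunit gene CHLH (AT5G13630) had 276 FPKM in C120L and 586 FPKM in C0 (log2 ratio -1.08) and the methyltransferase gene CHLM (AT4G25080) had 117 FPKM in C120L and 242 FPKM in C0 (log2 ratio -1.05). Of 6 plastid sigma factors 2 were lower, SIG1 (AT1G64860) with 60.7 FPKM in C120L and 119 FPKM in C0 (log2 ratio -0.97) and SIG6 (AT2G36990) with 42.1 FPKM in C120L and 63.3 FPKM in C0 (log2 ratio -0.59).

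Photoprotection genes had 2 of 19 members higher and 6 lower, with a median of -0.32, beside 13.6% higher and 17.0% lower over all genes. The carotene hydroxylase BCH2 (AT5G52570), on the way to zeaxanthin, had 42.5 FPKM before triggering, 64.5 after 30 min, 174 after 60 min and 163 after 120 min. NPQ4 (AT1G44575), the PsbS protein of non-photochemical quenching, had 1894 FPKM in C120L and 1825 FPKM in C0 (log2 ratio 0.05). The early light-induced proteins ELIP1 (AT3G22840) and ELIP2 (AT4G14690), often taken as light stress markers, had 76.1 FPKM in C120L and 74.0 FPKM in C0 (log2 ratio 0.04) and 18.7 FPKM in C120L and 33.1 FPKM in C0 (log2 ratio -0.82), in that order. After 30 min ELIP1 was at 97.7 FPKM and ELIP2 at 44.4 FPKM. The cyclase LUT2 (AT5G57030) (log2 ratio -0.96), phytoene synthase PSY (AT5G17230) (-0.76) and zeaxanthin epoxidase ABA1 (AT5G67030) (-0.75) were lower.

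Antioxidant enzymes had 6 of 27 members higher and none lower, and their median of 0.08 changed sign to -0.04 after scaling by the reference genes. Besides DHAR1, which had 347 FPKM before triggering, 384 after 30 min, 1078 after 60 min and 2659.9 after 120 min, the cytosolic ascorbate peroxidase APX1 (AT1G07890) was higher, with 897 FPKM in C120L and 358 FPKM in C0 (log2 ratio 1.32). The catalase CAT2 (AT4G35090) had 1084 FPKM in C120L and 1224 FPKM in C0 (log2 ratio -0.18). Ferritins, which store iron and keep it from forming radicals, were higher in 2 of 3 cases, with FER1 (AT5G01600) at 439 FPKM in C120L and 53.7 FPKM in C0 (log2 ratio 3.03) and FER3 (AT3G56090) at 82.2 FPKM in C120L and 21.4 FPKM in C0 (log2 ratio 1.94). Of 6 mitochondrial stress genes 5 were higher, including the alternative oxidase AOX1A (AT3G22370) with 44.7 FPKM in C120L and 18.2 FPKM in C0 (log2 ratio 1.299) and the NADH dehydrogenase NDB2 (AT4G05020) with 21.9 FPKM in C120L and 6.85 FPKM in C0 (log2 ratio 1.68).

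Enzymes after chalcone synthase were higher in part, and the entry to the pathway was not. The entry enzymes of the phenylpropanoid pathway had 4 of 7 members lower and none higher, with a median of -0.63, among them 4CL1 (AT1G51680) with 23.9 FPKM in C120L and 73.0 FPKM in C0 (log2 ratio -1.61) and PAL2 (AT3G53260) with 45.5 FPKM in C120L and 92.2 FPKM in C0 (log2 ratio -1.02). Chalcone synthase TT4 (AT5G13930), the first flavonoid enzyme, had 668 FPKM in C120L and 682 FPKM in C0 (log2 ratio -0.03). The later enzymes TT7 (AT5G07990) (2.06), LDOX (AT4G22880) (1.71), UF3GT (AT5G54060) (1.69) and DFR (AT5G42800) (1.67, all log2 ratios) were higher, and DFR had 34.8 FPKM before triggering, 36.9 after 30 min, 30.3 after 60 min and 111 after 120 min. FLS1 (AT5G08640), which makes flavonols, and the chalcone isomerase-like CHIL (AT5G05270) were lower, with log2 ratios of -0.89 and -0.93. Over the 15 enzymes 8 were higher and 2 lower, with a median of 0.70, and of 0.17, within 1.5-fold, with a mean of at least 10 FPKM. The activator PAP1 (AT1G56650) had 146 FPKM in C120L and 39.4 FPKM in C0 (log2 ratio 1.89) and its bHLH partner TT8 (AT4G09820) had 8.85 FPKM in C120L and 1.92 FPKM in C0 (log2 ratio 2.205), while the repressor MYBL2 (AT1G71030) had 16.0 FPKM in C120L and 30.5 FPKM in C0 (log2 ratio -0.93) and TTG1 (AT5G24520) had 11.9 FPKM in C120L and 26.0 FPKM in C0 (log2 ratio -1.13).

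Glucosinolates are sulfur-rich defence compounds of the Brassicaceae made from methionine (aliphatic) or tryptophan (indolic). Of 10 indolic and tryptophan genes 8 were higher and 2 lower, with a median of 1.14. The monooxygenase CYP81F4 (AT4G37410), which acts on the indole ring, had 69.9 FPKM in C120L and 4.62 FPKM in C0 (log2 ratio 3.92), and CYP79B2 (AT4G39950) and CYP79B3 (AT2G22330), which commit tryptophan to the pathway, had log2 ratios of 1.70 and 1.34. The regulator MYB51 (AT1G18570) had 0.86 FPKM in C120L and 3.02 FPKM in C0 (log2 ratio -1.81). Aliphatic genes had 2 of 19 higher and 2 lower, with a median of 0.37 and a highest log2 ratio of 0.78 in BCAT4 (AT3G19710). In this comparison of C120L with C0 13.6% of all genes were higher and 17.0% lower. With P0 in place of C0 as the baseline of C120L, 13 of the 19 were higher and 2 lower, with a median of 0.85. In P120L against P0 15 of these 19 were higher and none lower, where 15.3% of all genes were higher and 10.9% lower. As an example CYP79F1 (AT1G16410) had 96.7 FPKM in C120L and 63.4 FPKM in C0, against 105 FPKM in P120L and 44.5 FPKM in P0. The kinases APK1 (AT2G14750) and APK2 (AT4G39940), which supply activated sulfate, had log2 ratios of 1.22 and 1.01, and 3 of 12 sulfate assimilation genes were higher with none lower.

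Ribosome biogenesis genes were mostly higher at 120 min. Of 15 genes 11 were higher and none lower, with a median of 0.86. All 15 had their highest level of the light series at 120 min, beside 4741 of all 15074 genes. The nucleolin gene NUC1 (AT1G48920) had 109 FPKM before triggering, 122 after 30 min, 140.4 after 60 min and 229.7 after 120 min. The fibrillarin gene FIB2 (AT4G25630), which methylates ribosomal RNA, had 20.9 FPKM before triggering, 24.6 after 30 min, 20.4 after 60 min and 59.7 after 120 min. Both were within 1.5-fold of C0 at 30 and 60 min.

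The second pair of light libraries, P120L and P0, came from cold-primed plants, shares no library with C120L and C0, and is not a replicate. In it 2300 genes, 15.3% of 15063, were higher and 1643, 10.9%, were lower. Of the 2045 genes higher in C120L 1678 were also higher in P120L, which is 82.1% of the first list and 73.0% of the second. Of the 2557 lower genes 1462 were lower in both, which is 57.2% of the unprimed and 89.0% of the primed list. All 20 genes with the largest and all 20 with the smallest unprimed ratios were past 1.5-fold in the same direction in primed plants. The sizes differed from gene to gene. VSP1 had a log2 ratio of 6.33 in unprimed and 5.34 in primed plants, MDHAR 5.27 in unprimed and 2.96 in primed plants, and ORA47 -3.50 in unprimed and -1.31 in primed plants, whereas HSP17.6II had 7.97 in unprimed and 9.63 in primed plants. The median over all genes was -0.07 in the unprimed and 0.06 in the primed pair.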

How the data were processed

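RNA was extracted from pooled rosettes, and poly(A)-enriched libraries were sequenced as paired ends by the Beijing Genomics Institute. The authors deposited 1 table of FPKM for 27861 genes and 14 libraries, with TAIR10 as reference. In the study's methods reads were aligned with Bowtie2 and FPKM came from RSEM, whereas the submitters' processing notes name HISAT2 2.1.0, and strand use is not given in the sources used here. FPKM values were taken as deposited, without scaling or pseudocount. All 27861 gene identifiers matched RefSeq TAIR10.1, which supplied names, coordinates and windows of 250 bases before the start.

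Genes with a mean of at least 2 FPKM over 14 libraries were compared as log2 C120L/C0 (Python 3.11.15, pandas 2.3.3, NumPy 2.4.6), with 1.5-fold as threshold. With 1 library per condition no test was run. Read totals were not used. The ratio step was tested on simulated data.

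Named are the 20 largest and 20 smallest ratios (at least 0.5 FPKM in both libraries, at least 10 FPKM in the higher), the 5 highest genes at 0 in C0, the 5 largest gains and losses, and members of 47 gene lists (the extremes and the most abundant, with others by role). Genes, lists and thresholds were chosen with earlier results of these data known. Windows are printed for the list whose motif share differed most from that of all windows, with LUX and HSP17.4 added after their values were seen. Counts were repeated with 2-fold as the limit, with 1 FPKM added to every value, with the filter raised to 10 FPKM or dropped, with a floor of 0.5 FPKM for C0 and P0, after scaling by 8 reference genes or by the median ratio, and with P0 in place of C0.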

Additional observations from a re-analysis of the deposited data

Results flagged for a closer look

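For 3 genes of the lists the ratio lay past 1.5-fold in opposite directions in the primed and unprimed pairs, and with 1 library per condition this difference was not tested. The pathogenesis-related gene PR1 had a log2 ratio of 1.35 in unprimed plants (14.4 FPKM in C120L and 5.65 FPKM in C0) and of -1.01 in primed plants (2.99 FPKM in P120L and 6.04 FPKM in P0). The calmodulin-like gene CML38 had 1.13 in unprimed plants (13.01 FPKM in C120L and 5.96 FPKM in C0) and -1.74 in primed plants (3.67 FPKM in P120L and 12.3 FPKM in P0). The repressor gene JAZ8 had 0.83 in unprimed plants (3.11 FPKM in C120L and 1.75 FPKM in C0) and -1.43 in primed plants (0.80 FPKM in P120L and 2.15 FPKM in P0). The highest level of the 3 genes in these libraries was 14.4 FPKM (PR1 in C120L), and JAZ8 did not pass 3.11 FPKM. Over all genes 7 were higher in C120L and lower in P120L than before triggering, and 7 were lower in C120L and higher in P120L.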

How the results depend on the processing

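No paired analysis was possible because each condition has 1 library, so that the groups share fewer than 2 replicate numbers. For the same reason no replicate could be left out. The count of genes higher in C120L was 1017 at a 2-fold threshold, 1094 with a mean of at least 10 FPKM and 3680 with no filter on the mean, and the count of lower genes was 1097, 1227 and 4499 under these settings, in that order. Both counts stayed within 1.5 times of 2045 and 2557 with a pseudocount of 1 FPKM (1798 and 2094), a floor of 0.5 FPKM for C0 and for P0 (1989 and 2555), scaling by the reference genes (1636 and 3363) or by the median ratio (2121 and 2441), and with P0 as baseline (2433 and 2325). The last gave more higher than lower genes. The median of the sugar-starvation list was 0.59 with a mean of at least 10 FPKM, which kept the more abundant members only, and -1.15 with the mean of at least 2 FPKM. List medians past 1.5-fold came within it for abscisic acid turnover (0.28), its receptors (-0.55), flavonoid enzymes (0.17), class II trehalose phosphate synthases (-0.56) and type-A response regulators (-0.55) with a mean of at least 10 FPKM, for the receptors (-0.52) and type-A regulators (-0.58) with a pseudocount, for endoplasmic reticulum folding (0.56) with reference genes, and for phenylpropanoid entry (-0.53) and calmodulin-like genes (-0.49) with P0 as baseline. At 2-fold 12 list medians no longer passed. Other medians, within 1.5-fold in the main setting, went past it. With a mean of at least 10 FPKM these were salicylic acid (0.94), SAUR genes (0.61), flavonoid regulators (-0.93) and brassinosteroid and gibberellin metabolism (-0.92). With P0 as baseline they were salicylic acid (0.68), aliphatic glucosinolates (0.85) and glutathione S-transferases (0.88). The small heat shock median was 1.37 with the floor and 2.04 with P0. All 50 named genes with a ratio kept their direction under every setting that retained them, and 1 (RCA) was past 1.5-fold but not 2-fold. Reads at low levels and differences under 1.5-fold cannot be judged with 1 library, and the lists name chosen genes, not whole pathways.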

Other observations

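Glutathione S-transferase genes, whose products conjugate reactive compounds, had 10 of 22 members higher in C120L and 2 lower, with a median log2 ratio of 0.51. GSTU5 (AT2G29450) had 858 FPKM in C120L and 215 FPKM in C0 (log2 ratio 1.995), GSTF9 (AT2G30860) had 773 FPKM in C120L and 342 FPKM in C0 (log2 ratio 1.18), and GSTU4 (AT2G29460) had 13.3 FPKM in C120L and 1.04 FPKM in C0 (log2 ratio 3.68), whereas GSTU27 (AT3G43800) was lower, with 7.57 FPKM in C120L and 31.3 FPKM in C0 (log2 ratio -2.05). Calmodulin-like genes, calcium sensors that respond to touch and many stresses, had 6 of 9 members lower and 2 higher, with a median of -0.88. CML24 (AT5G37770) had 56.6 FPKM before triggering, 64.2 after 30 min, 87.4 after 60 min and 17.5 after 120 min, CML12 (AT2G41100) had 106 FPKM before triggering, 156 after 30 min, 174 after 60 min and 52.1 after 120 min, and CML39 (AT1G76640) had 0.33 FPKM before triggering, 0.46 after 30 min, 23.3 after 60 min and 10.2 after 120 min. None of the 9 was highest at 120 min. Type-A response regulators, early targets of cytokinin, had 4 of 8 lower and none higher, with a median of -0.63, from ARR9 (AT3G57040) with 9.77 FPKM in C120L and 28.2 FPKM in C0 (log2 ratio -1.53) to ARR7 (AT1G19050) with 44.8 FPKM in C120L and 35.9 FPKM in C0 (log2 ratio 0.32).

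Aquaporins of the plasma membrane were split, with 3 of 12 higher and 3 lower, beside 13.6% higher and 17.0% lower over all genes. PIP2;3 (AT2G37180) had 266 FPKM in C120L and 62.8 FPKM in C0 (log2 ratio 2.08) and PIP1;4 (AT4G00430) had 479 FPKM in C120L and 209 FPKM in C0 (log2 ratio 1.19), while PIP1;5 (AT4G23400) had 55.0 FPKM in C120L and 160.0 FPKM in C0 (log2 ratio -1.54). Among genes of brassinosteroid and gibberellin metabolism the synthesis gene CPD (AT5G05690) had 18.4 FPKM in C120L and 46.4 FPKM in C0 (log2 ratio -1.33) and the inactivating BAS1 (AT2G26710) had 8.55 FPKM in C120L and 2.61 FPKM in C0 (log2 ratio 1.71), and the gibberellin oxidase GA20OX1 (AT4G25420) had 17.75 FPKM in C120L and 6.53 FPKM in C0 (log2 ratio 1.44). In all 2 of these 10 genes were higher and 3 lower.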
